A study of Laccaria bicolor with 37 samples.

Results

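LbH12, gene model 241509's symbol in RefSeq, is a hydrophobin of the ectomycorrhizal basidiomycete Laccaria bicolor S238N, and its transcript was followed here in mycelium grown with and without poplar roots. It was taken by its gene model number, which is also that of the RefSeq locus tag LACBIDRAFT_241509, as 1 of 23130 gene models measured. The reason was that the study singled it out among the genes that respond most to root contact. The study also counts it among the genes most regulated by nutrient supply in mycelium without a plant, on a medium not covered here. Hydrophobins are small secreted proteins with a conserved spacing of cysteines and with one water-repellent and one water-attracting face. They assemble into films at the interface between water and air or at the hyphal wall, where they make aerial hyphae and fruiting bodies water-repellent and help hyphae to attach to surfaces. In ectomycorrhizas, in which hyphae form a mantle around short roots and a Hartig net between epidermal cells, hydrophobin transcripts of several fungi are known to accumulate while the mantle forms.

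The 37 RNA-seq libraries fell into 13 groups. Ectomycorrhiza (EcM) was sampled at 3, 7, 14 and 21 days post-inoculation (dpi) with 3 libraries each. Extramatrical mycelium (ExM) was sampled at the same days with 3, 3, 2 and 3 libraries, and free-living mycelium (FLM) with 2 libraries at day 0 and 3 at each of the other 4 days. Strain S238N on cellophane-covered P20 agar was common to all groups, and (co-)culture was at 20 °C, with FLM of day 0 taken at its start. EcM and ExM plates also held Populus tremula x alba 717-1B4 micro-cuttings, whereas FLM plates held no plant. Material of such a plate was split at 0.5 cm from the nearest root. The inner share, roots included, was EcM and the outer mycelium ExM, so EcM held mantle, Hartig net and hyphae near the root together. In such bulk material more hyphae of one kind and more transcript per hypha cannot be told apart. For EcM, which contained roots, the paper also added polyethylene glycol to the RNA extraction buffer. EcM thus differed from ExM and FLM in extraction and in plant tissue too, and these cannot be told apart from closeness to the root. The labels call the libraries biological replicates but do not say whether they came from separate plates, so that p-values measure the spread between these libraries. For edgeR, the count model used for calls, that spread was estimated over all 37 libraries of the 13 groups, not from the compared libraries alone.

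Library totals ran from 13.8 to 36.8 M counts (median 20.7 M, where M stands for 1e6). Levels are given as CPM, counts scaled to library size after TMM normalization, or as the deposited RPKM, which is also scaled to transcript length. At these totals, 3 counts, taken as the floor below which a level was not read, stood for 0.0764 to 0.243 CPM. MiSSP17 and a protein with a gti1/pac2 domain, both named by the study for EcM, were higher in every EcM library than in every ExM and FLM library in 8 of 8 gene and day pairs, and no library went against its label. The study named both on these same libraries, so the choice favoured this order and it is no independent check of the labels.

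Among the libraries used here, the LbH12 transcript was found almost only in EcM, from 7 dpi. At 3 dpi the EcM libraries had 2, 1 and 3 counts. At 7 dpi they had 36, 39 and 34 counts, or 1.87, 2.19 and 1.59 CPM. At 14 dpi they had 286, 261 and 472 counts, or 12.5, 19.8 and 26.9 CPM. All 3 libraries of 14 dpi lay above all 3 of 7 dpi, and these above all 3 of 3 dpi, which were at the floor. At 21 dpi the EcM libraries had 203, 217 and 99 counts, or 15.7, 17.6 and 5.0 CPM, so that the range of 21 dpi overlapped that of 14 dpi and replicate 3 lay below both of its partners. In RPKM, which takes the transcript's length into account, the EcM groups averaged 0.288 ± 0.208, 5.53 ± 0.874, 58.1 ± 20.7 and 34.1 ± 17.5 at 3, 7, 14 and 21 dpi (SD, n = 3 each). At 14 dpi this placed LbH12 between percentiles 84.6 and 94.1 of all gene models of a library.

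Away from the root the transcript was close to absent at this depth. ExM libraries had 1, 2 and 0 counts at 3 dpi, 13, 3 and 8 at 7 dpi, 6 and 1 at 14 dpi, and 2, 7 and 1 at 21 dpi. FLM libraries had 1 and 1 counts at day 0, 0, 2 and 1 at 3 dpi, 2, 2 and 3 at 7 dpi, 2, 0 and 4 at 14 dpi, and 0, 1 and 0 at 21 dpi. In all, 7 of 11 ExM libraries and 13 of 14 FLM libraries were at the floor of 3 counts or under it. The 12 EcM libraries together held 1653 counts, the 11 ExM libraries 44 and the 14 FLM libraries 19, the last of a total of 317.0 M. The 6 EcM libraries of 14 and 21 dpi held 89.6% of all 1716 counts. A library with 0 counts does not show that the gene was silent, because 0 allows a level of up to 3 counts, and these limits cover counting error only.

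**Figure D1:**
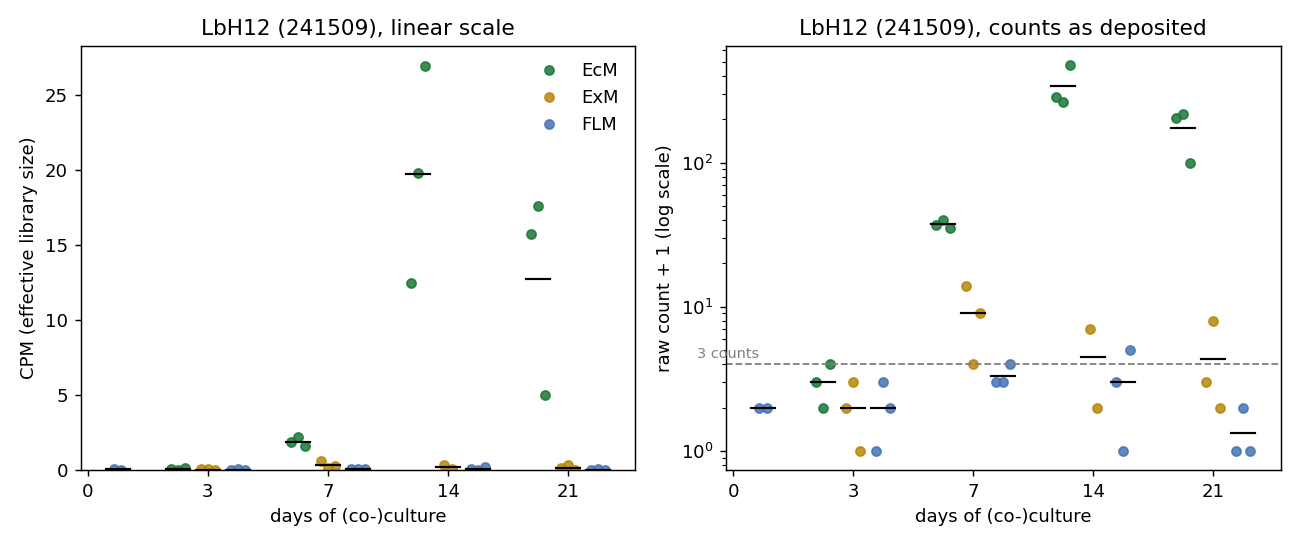
Level of LbH12 in each of the 37 libraries by day of (co-)culture, on the left as CPM and on the right as deposited count + 1 on a log axis, with EcM in green, ExM in yellow, FLM in blue, a black bar at the group mean and a dashed line at 3 counts. EcM libraries leave the level of the others at 7 dpi and lie between 5.0 and 26.9 CPM at 14 and 21 dpi, whereas no ExM or FLM library passes 0.606 CPM.

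Ordered by mean CPM, the 13 groups began with EcM at 14 dpi (19.7 ± 7.22), EcM at 21 dpi (12.8 ± 6.81) and EcM at 7 dpi (1.88 ± 0.297). EcM at 14 and 21 dpi overlapped, while EcM at 7 dpi lay below both and above every ExM library of 7 dpi. ExM at 7 dpi (0.341 ± 0.235), at 14 dpi (0.192 ± 0.196, n = 2) and at 21 dpi (0.182 ± 0.168) came next, each overlapping with its neighbour. The other 7 groups were EcM at 3 dpi, ExM at 3 dpi and the 5 FLM groups, with means of 0.0958 CPM or less. Among these lowest 7, every neighbouring pair overlapped except FLM at 7 dpi and FLM at day 0, whose libraries had 2 to 3 counts and 1 count each, so this last order was not one that the depth could resolve.

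The coefficient of variation of CPM between EcM replicates was 69.3% at 3 dpi, against 70.7% for counting error alone at that number of counts. At 7 dpi it was 15.8%, against 16.6% for counting error. At 14 and 21 dpi it was 36.6% and 53.3%, against 5.43% and 7.6% for counting error.

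The lowest late EcM library was replicate 3 of 21 dpi. Its LbH12 level was 0.3 times the mean of replicates 1 and 2, and LbH13, the hydrophobin most like it, was at 0.484 times in the same library. The median over the 329 gene models called higher in EcM than in FLM at 21 dpi was 0.917 times, and 16 of them, LbH12 included, were at 0.3 times or lower. MiSSP17, a small secreted protein made in symbiosis, was at 0.255 times, whereas the gti1/pac2 protein was at 0.818 times. These 329 were called in a fit that included replicate 3, which favours gene models that were high in it too. Without it, EcM at 21 dpi averaged 16.7 CPM.

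The study named the gene for its response in EcM, so the values of EcM against FLM are given as a description with no test. At 3 dpi both were at the floor, with 6 counts over the 3 EcM libraries and 3 over the 3 FLM libraries, and no fold was drawn. The strong regulation in EcM that the study states for 3 days was thus not seen in these counts. At 7 dpi EcM had 109 counts and FLM 7, a ratio of 23.2 (exact 95% counting interval 10.9 to 59). At 14 dpi EcM had 1019 counts and FLM 6, a ratio of 247 (113 to 676), and at 21 dpi EcM had 519 and FLM 1, a ratio of 629 with a wide interval of 112 to 24906. Set against the level that 3 counts would have given in each FLM library, the EcM mean was 17.1 times that level at 7 dpi, 165 times at 14 dpi and 77 times at 21 dpi. The groups did not overlap at these 3 days. Over all 15533 gene models tested, 1.93%, 3.92%, 6.8% and 5.63% were called between EcM and FLM at 3, 7, 14 and 21 dpi, where called means that edgeR's quasi-likelihood test gave an adjusted p under 0.05 and a change of 2-fold or more.

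EcM against ExM asked whether the transcript depended on closeness to the root within plates that held a plant. The study's naming set EcM apart from the other mycelia, ExM included, so these p-values are not independent of the choice of the gene and add no support to it. At 3 dpi EcM had 6 counts and ExM 3, both at the floor, and the gene was not called (adjusted p = 1, with 0.0386% of all gene models called). At 7 dpi EcM averaged 1.88 ± 0.297 CPM and ExM 0.341 ± 0.235 (SD, n = 3 each), a log2 fold change of 2.45 ± 0.54 (SE) that was called with an adjusted p of 0.0169, where 0.303% of gene models were called. That call did not hold in every setting, although the libraries did not overlap. The adjusted p by edgeR was 0.125 without ExM replicate 2, 0.147 without ExM replicate 3, 0.0655 without EcM replicate 2 and 0.0505 when only these 6 libraries were fitted.

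At 14 dpi EcM averaged 19.7 ± 7.22 CPM (n = 3) and ExM 0.192 ± 0.196 (n = 2), with a log2 fold change of 6.65 ± 0.65 and an edgeR adjusted p of 1.15e-08, where 5.61% of gene models were called. At 21 dpi EcM averaged 12.8 ± 6.81 CPM and ExM 0.182 ± 0.168 (n = 3 each), with a log2 fold change of 6.11 ± 0.56 and an edgeR adjusted p of 2.89e-09, where 4.39% were called. Every EcM library exceeded every ExM library at both days. The counts behind these values were 1019 in EcM and 7 in ExM at 14 dpi, a ratio of 100 (exact 95% counting interval 48.3 to 249), and 519 in EcM and 10 in ExM at 21 dpi, a ratio of 65.5 (35.3 to 137). Both calls held in each alternative that was run. With the compared libraries fitted alone, the edgeR adjusted p was far larger, at 0.00536 at 14 dpi and 0.00397 at 21 dpi.

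The EcM minus ExM difference, averaged over 14 and 21 dpi, exceeded that averaged over 3 and 7 dpi by 4.69 ± 1.32 on the log2 scale (edgeR adjusted p = 0.0116, with 2.84% of gene models called). The 3 dpi term in it rests on counts at the floor, and without ExM replicate 2 of 3 dpi the difference was 4.31 with an adjusted p of 0.167. Over the 4 days, EcM exceeded ExM by 2.66 in log2(CPM + 0.5) on average, with 1.53, 4.83 and 4.13 at 7, 14 and 21 dpi and 0.13 at 3 dpi, where both were at the floor. The exact permutation test with labels exchanged within days gave a two-sided p of 6.25e-05, or 0.000125 adjusted over the 2 permutation tests made, where the smallest p possible was 1.25e-05. Like those of single days, these p-values are not independent of the choice of the gene.

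**Figure D2:**
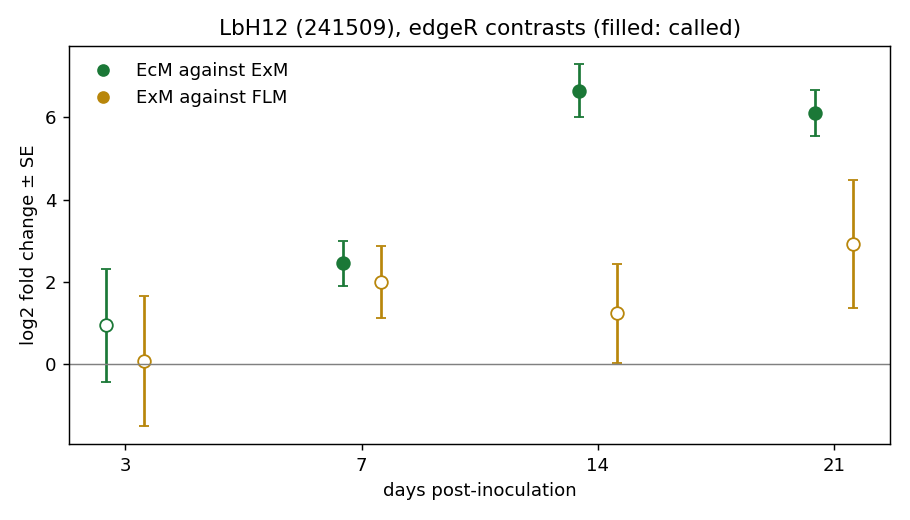
edgeR log2 fold change of LbH12 at 3, 7, 14 and 21 dpi with its standard error as a bar, for EcM against ExM in green and ExM against FLM in yellow, filled where called. The EcM against ExM contrast is called at 7, 14 and 21 dpi with values of 2.45, 6.65 and 6.11, and no ExM against FLM contrast is called.

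ExM against FLM asked whether mycelium away from the root, but on a plate with a plant, also carried more of the transcript. No day was called. At 3 dpi both were at the floor with 3 counts each (edgeR adjusted p = 0.989, 1.52% of gene models called). At 7 dpi ExM averaged 0.341 ± 0.235 CPM and FLM 0.0821 ± 0.0102 (SD, n = 3 each), with a log2 fold change of 1.99 ± 0.87, an unadjusted p of 0.0303 and an edgeR adjusted p of 0.204, where 2.02% were called. The 3 ExM libraries of that day lay above the 3 FLM libraries, with 0.156 CPM in the lowest ExM library and 0.0939 CPM in the highest FLM library. At 14 dpi ExM had 7 counts in 2 libraries and FLM 6 in 3, with overlapping libraries (edgeR adjusted p = 0.971, 0.0451% called). At 21 dpi ExM had 10 counts and FLM 1, also overlapping (edgeR adjusted p = 0.234, 1.65% called).

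Over the 4 days together the mean difference of log2(CPM + 0.5) between ExM and FLM was 0.27, with 0.50, 0.21 and 0.37 at 7, 14 and 21 dpi and 0.02 at 3 dpi, where both were at the floor. It had a two-sided exact permutation p of 0.0138, also after adjustment over the 2 tests. Without ExM replicate 1 of 14 dpi, which held 6 of the 7 ExM counts of that day, the difference was 0.20 and the exact permutation p was 0.0774. All of these levels were 0.606 CPM or less, under every EcM library of 7, 14 and 21 dpi.

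Within EcM the transcript rose over the first 2 intervals. From day to day, EcM at 7 dpi exceeded EcM at 3 dpi by a log2 fold change of 4.31 ± 0.70 (edgeR adjusted p = 2.95e-05, 3.82% of gene models called), a value that depends on the prior count because 3 dpi was at the floor. EcM at 14 dpi exceeded EcM at 7 dpi by 3.39 ± 0.40 (edgeR adjusted p = 2.26e-07, 7.79% called). EcM at 21 dpi was at -0.64 ± 0.34 relative to 14 dpi and was not called (edgeR adjusted p = 0.219, 2.27% called), so that a fall after 14 dpi was not detectable against the spread of these libraries. The first and second step were called in each alternative run, and the third in none. The study named the gene for EcM at 14 and 21 dpi, so these p-values are not independent of that choice either.

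Other hydrophobins put this pattern in context. The study's tables annotate 9 further gene models as hydrophobins or structural wall constituents, and all 9 passed the filter on low counts. Those tables list regulated transcripts, so the 9 are neither all hydrophobins of the fungus nor independent evidence of a direction. RefSeq's gene table gives LbH1, LbH9, LbH11, LbH13 and LbH14 among them. The 4 with no symbol there are called hydrophobins A to D here, in falling order of their highest group mean, and the heatmap of hydrophobin levels gives their gene model numbers. A further 2 gene models with such symbols, LbH8 (253148) and LbH10 (238394), were added after that table was seen, and LbH10 did not pass the filter, with at most 10 counts in a library.

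Against ExM, the number of the 9 called higher in EcM was 0 at 3 dpi (edgeR, with 2 at an unadjusted p under 0.05 and 0 by DESeq2), 1 at 7 dpi, 4 at 14 dpi and 3 at 21 dpi, and none was called lower. Over all gene models tested, 0.0386%, 0.29%, 3.02% and 1.44% were called higher in this comparison. The median log2 fold change of the 9 was 0.07, 0.74, 1.84 and 0.70 at these days, beside -0.0023, 0.0041, -0.02 and -0.03 over all gene models tested. Against FLM, EcM was called higher for 0 of 9 at 3 dpi (0 at an unadjusted p under 0.05, 0 by DESeq2), 3 at 7 dpi, 4 at 14 dpi and 3 at 21 dpi, beside 1.78%, 3.68%, 4.03% and 2.12% of all gene models. DESeq2 called 4 at 7 dpi. Between ExM and FLM none of the 9 was called at any day by edgeR, with 0 at an unadjusted p under 0.05 and 0 by DESeq2. Over all gene models only 1.52%, 2.02%, 0.0451% and 1.65% were called there at 3, 7, 14 and 21 dpi. At such shares, no call among 9 gene models says little about hydrophobins. Adding LbH8 changed none of these counts.

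LbH13 was the only one of the 9 called higher in EcM than in ExM at 7 dpi. At 7 dpi its EcM libraries had 14.6, 13.7 and 9.26 RPKM, at 14 dpi 67.8, 80.1 and 113, and at 21 dpi 70.3, 46.1 and 29.8. ExM libraries lay between 2.47 and 5.93 RPKM and FLM libraries between 1.75 and 7.56 over all days, so that from 7 dpi no EcM library overlapped with them. The log2 fold change over ExM was 1.65 ± 0.33, 4.59 ± 0.39 and 3.53 ± 0.32 at 7, 14 and 21 dpi (edgeR adjusted p 0.00716, 5.05e-10 and 1.63e-09). The call at 7 dpi was lost without ExM replicate 3 (adjusted p = 0.0971) and with the 6 libraries alone (0.0596). Unlike LbH12, which was at the floor in most libraries without root contact, LbH13 had 10 to 45 counts in every FLM library.

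**Figure D3:**
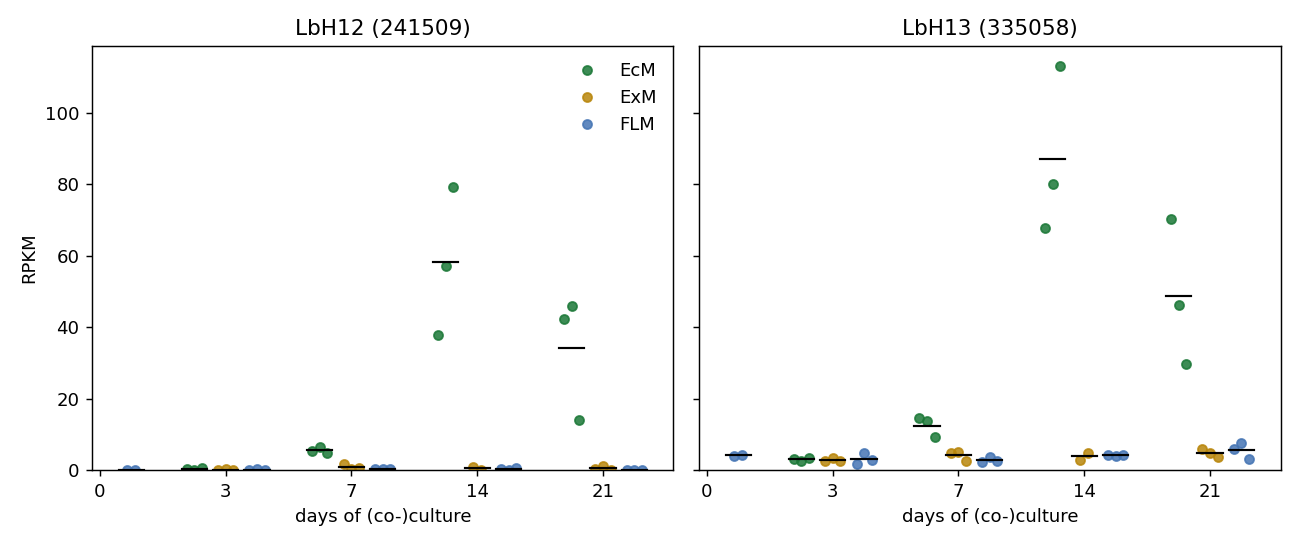
RPKM of LbH12 (left) and LbH13 (right) in each library by day of (co-)culture on a shared axis, with EcM in green, ExM in yellow and FLM in blue and a black bar at each group mean. Both gene models are highest in EcM at 14 dpi, at 58.1 and 87 RPKM on average, and LbH13 has 1.75 RPKM or more in every ExM and FLM library.

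The relative level of the pair varied within EcM, which was not tested, and the values of 21 dpi overlapped those of both earlier days. Per length, LbH13 was 2.78, 2.1 and 1.91 times as high as LbH12 in the EcM libraries of 7 dpi, 1.79, 1.4 and 1.43 times at 14 dpi, and 1.66, 1.0 and 2.12 times at 21 dpi. LbH12 was the lower one at 7 and 14 dpi in each library and about level with LbH13 in replicate 2 of 21 dpi. The mapping allowed a read several positions, and how reads shared by near-identical transcripts were divided is not given in the sources used here, so this ratio is uncertain to the extent that they share sequence.

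The other 3 called in EcM against ExM were above the floor in every EcM library of 3 dpi, where LbH12 was at it. LbH9 averaged 8.19 ± 2.92 RPKM in EcM at 3 dpi (n = 3), but its FLM libraries of day 0 differed widely, with 109 and 3 counts. LbH9 averaged 28.5 ± 1.12 RPKM in EcM (n = 3) and 0.423 ± 0.125 in ExM (n = 2) at 14 dpi, with a log2 fold change of 6.10 ± 1.02 (edgeR adjusted p = 8.95e-05). At 21 dpi it was at 3.33 ± 2.5 RPKM in EcM, a log2 fold change of -2.98 ± 0.64 relative to EcM at 14 dpi (edgeR adjusted p = 0.0019). Its ExM libraries were all at the floor at 14 and 21 dpi, with 0 to 3 counts, so that these fold changes depend on the prior count. LbH9 thus fell in EcM after 14 dpi, whereas no fall of LbH12 was detectable, and the difference between the 2 changes was not tested. At 21 dpi LbH9 was still called over ExM (log2 fold change 3.71, edgeR adjusted p = 0.0138), but not without ExM replicate 3 (adjusted p = 0.0713) or EcM replicate 1 (0.0823).

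For hydrophobin A and hydrophobin B the difference at 14 dpi stood beside high levels in young mycelium of every kind. Hydrophobin A averaged 53.4 ± 12.9 RPKM in EcM at 3 dpi, 28.3 ± 3.47 in ExM and 60.7 ± 27 in FLM (n = 3 each). At 14 dpi it was at 32.4 ± 7.1 in EcM, 4.75 ± 0.238 in ExM (n = 2) and 4.04 ± 1.04 in FLM. Its log2 fold change of EcM over ExM was 2.86 ± 0.71 at 14 dpi (edgeR adjusted p = 0.00479) and 2.34 ± 0.67 at 21 dpi (0.00803), and the call at 14 dpi was lost without ExM replicate 2 (adjusted p = 0.0553). Hydrophobin B averaged 15 ± 1.73 RPKM in EcM at 14 dpi, 4.43 ± 0.798 in ExM and 4.87 ± 1.48 in FLM, with EcM over ExM at 1.84 ± 0.37 on the log2 scale (edgeR adjusted p = 0.000474), but it had 51.4 ± 7.76 in FLM at day 0 (n = 2). Both are thus unlike LbH12, whose FLM libraries were at the floor at day 0.

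The remaining 5 of the 9 were not called between EcM and ExM at any day. LbH14 was called over FLM at 7 dpi (log2 fold change 1.83 ± 0.45, edgeR adjusted p = 0.00703), but replicate 1 had 10.4 of a mean of 4.98 RPKM in EcM, and without it the value was 0.65 with an adjusted p of 0.386. LbH11 and LbH1 had their highest group means at 10.7 RPKM in ExM at 21 dpi and at 7.69 RPKM in EcM at 14 dpi, and their lowest at 6.02 and 4.19 RPKM. Hydrophobin C and hydrophobin D were low, with highest group means of 3.04 and 2.6 RPKM, and hydrophobin D was called lower in EcM at 14 dpi than at 7 dpi (log2 fold change -1.65 ± 0.57, edgeR adjusted p = 0.0246). Of its 3 EcM libraries of 14 dpi 2 were at the floor, and the highest had 7 counts, so this value rests on few counts.

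**Figure D4:**
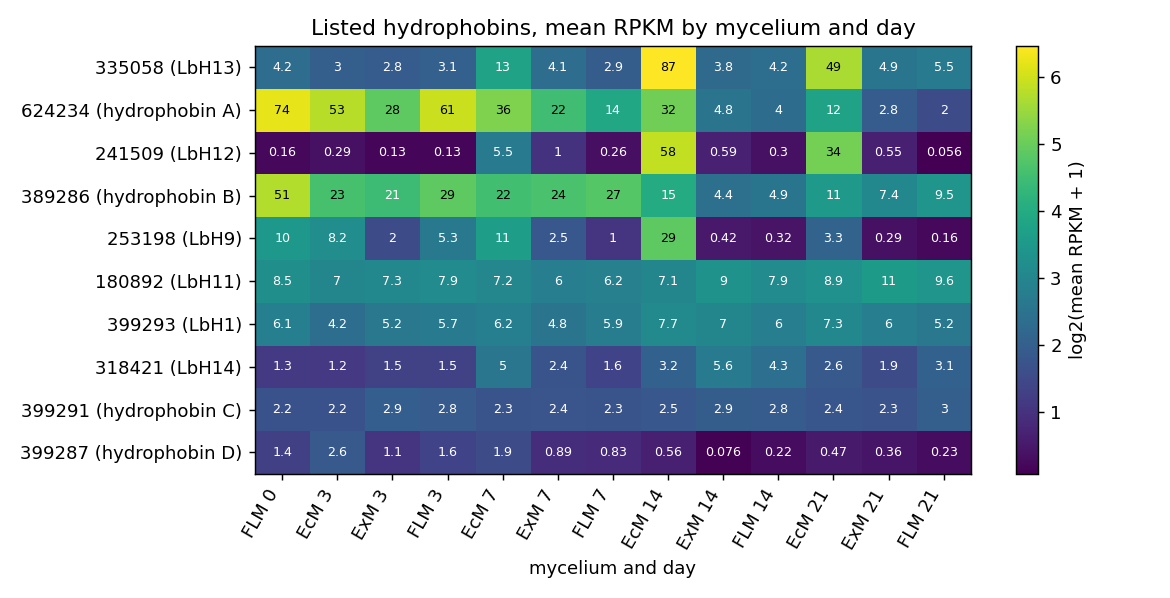
Mean RPKM of the 10 listed hydrophobins (rows, ordered by their highest group mean) in the 13 groups of mycelium and day (columns), with the colour on a log2(RPKM + 1) scale and the mean printed in each cell. LbH12 is dark in every group but EcM at 7, 14 and 21 dpi, while hydrophobin A and hydrophobin B are bright in young mycelium of every kind.

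The summed RPKM of the 10 listed hydrophobins, LbH12 included, describes how much of this set the gene made up. At 14 dpi the sum was 242 ± 35.7 in EcM (n = 3), 38.6 ± 2.91 in ExM (n = 2) and 35.1 ± 2.11 in FLM (n = 3). LbH12 made up 23.5 ± 5.28% of it in EcM, 1.6 ± 1.66% in ExM and 0.882 ± 0.917% in FLM. In EcM its part was 0.295 ± 0.253%, 5.04 ± 0.357%, 23.5 ± 5.28% and 25 ± 10.1% at 3, 7, 14 and 21 dpi (SD, n = 3 each). At 21 dpi the sum in EcM was 131 ± 34.7, so that the part of LbH12 was within the spread of that at 14 dpi while the mean sum was lower, a difference given with no test. LbH12 and LbH13 together thus made up more than any other pair of the list in EcM at 14 dpi, at means of 58.1 and 87 RPKM.

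In RefSeq's gene table for assembly V1.0, which was used only for names and gene order, 1 gene model (335057) lies between LbH12 and LbH13. Of the 5 gene models on each side of LbH12, chosen after the table was seen, 4 were measured under the same number. Between them the level of the pair was not shared. At 14 dpi 335057 averaged 0.567 ± 0.204 RPKM in EcM and 1.62 ± 0.343 in FLM (n = 3 each), which was called lower at a log2 fold change of -1.30 (edgeR adjusted p = 0.00864). It was not called in EcM against ExM at 14 dpi (-0.74, edgeR adjusted p = 0.248). Nor was it called in EcM against FLM at 7 and 21 dpi (edgeR adjusted p 0.527 and 0.854). 335053 and 316593, on either side of the pair, were at 1.31 and 2.26 RPKM in EcM and at 2.12 and 2.61 RPKM in FLM on average and were not called (edgeR adjusted p 0.0994 and 0.85).

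The 6 gene models most like LbH12 were those with the highest Pearson correlation of log2 CPM (prior count 2) over the 37 libraries, among 15532 compared. The points share groups and depth, and 23 of the 37 libraries were at the floor for LbH12, so r is given as a description with no p. LbH13 came first with r = 0.946 (Spearman's rho 0.599 over the 13 group means). It was followed by 392631, which the study annotates as a cytochrome P450, a class of haem enzymes that oxidise small molecules (r = 0.94, rho 0.797), and by 453935 and 453936, annotated with a domain of unknown function (r = 0.936 and 0.929, rho 0.711 and 0.496). 307294, a small secreted protein of unknown function (r = 0.928, rho 0.544), and 317986, a secreted protein of unknown function (r = 0.926, rho 0.67), completed the set.

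All 6 were highest in EcM at 14 or 21 dpi, which their choice by correlation with LbH12 on these libraries favoured, but at very different levels. 317986 averaged 541 ± 157 RPKM in EcM at 14 dpi, 18.3 ± 0.316 in ExM (n = 2) and 16.2 ± 1.79 in FLM (n = 3). 453935 averaged only 2.37 ± 1.51 RPKM in EcM and was listed at 0 in ExM and FLM at that day. 392631 averaged 18.8 ± 2.34 RPKM in EcM, 3.07 ± 0.59 in ExM and 3.37 ± 0.345 in FLM. By the Pearson correlation over the 13 group means 4 of the 6 were again among the first 6, and by Spearman's correlation over the 37 libraries 0 of 6 were, with ranks from 29 to 330, so that the choice of genes depended on the measure of likeness.

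**Figure D5:**
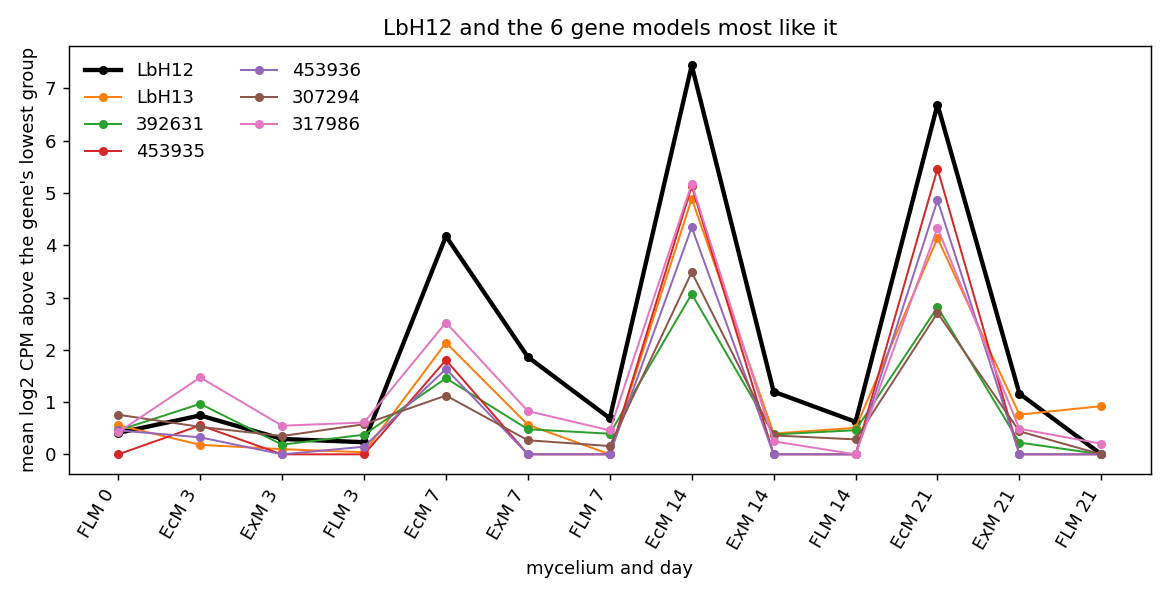
Mean log2 CPM (prior count 2) of LbH12 (black) and the 6 gene models most like it, each drawn relative to its own lowest group, over the 13 groups of mycelium and day, with lines only guiding the eye between groups. All 7 stand highest in EcM at 14 and 21 dpi, which the choice of the 6 by correlation favoured, and LbH12 has the largest span of those drawn.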

How the data were processed

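The authors trimmed paired-end reads of stranded poly(A) libraries (HiSeq3000), mapped them to the L. bicolor v2 reference transcripts with CLC Genomics Workbench and deposited a raw read count and an RPKM value for each gene model and library. Whether the deposited counts hold unique or all mapped reads is not given in the sources used here. DESeq2 is the tool named in the submitters' processing notes. No per-sample column was left unused (0 columns).

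All 37 libraries were fitted together with edgeR 4.0.16 (R 4.3.3, limma 3.58.1) on the deposited counts: filterByExpr by group (minimum count 10, minimum total 15), TMM scaling, robust quasi-likelihood F-tests of group means and Benjamini-Hochberg adjustment over 15533 gene models. Calls needed an adjusted p under 0.05 and an absolute log2 fold change of 1 or more. Totals were 13.8 to 36.8 M counts, and the common biological coefficient of variation was 0.142. The deposited RPKM of LbH12 implied a transcript of 330 bases in every library with a count. Ratios of summed counts have exact binomial (Clopper-Pearson) intervals at 95%, which cover counting error only. The permutation tests, made in Python 3 with scipy, enumerated all arrangements within days and used a pseudocount of 0.5 CPM. The scripts were tested on simulated data with the same spread, 0.142, for every gene model. The gene models changed there were above the floor in most groups, unlike LbH12, so that test does not cover such a gene model. No replicate pair differed by less than sampling noise (smallest chi-square per degree of freedom 4.59 over 35 pairs).

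Alternatives were DESeq2 1.42.0, median-of-ratios scaling, total counts alone, no filter, the compared libraries alone, a replicate block, each library left out, other pseudocounts (0.1 and 2 CPM), RPKM in the permutation test, a floor of 10 counts, other family lists and other measures of likeness. Named genes were LbH12, the listed hydrophobins that were called or highest, and the 6 gene models most correlated with LbH12. The gene, lists and tests were chosen with earlier results of these data known. Same-numbered EcM and ExM libraries of 21 dpi deviated together (correlation 0.122, 0.15 and 0.165 in 3 pairs, all over 0.1), which is a hint from the data alone, and no other comparison with 3 pairs did so. Gene symbols and gene order came from RefSeq's table of assembly V1.0, matched by gene model number (6580 matches). Coordinates and sequences were not used here.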

Additional observations from a re-analysis of the deposited data

Results flagged for a closer look

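The contrast of LbH12 between EcM and ExM differed between the later and the earlier days. The EcM minus ExM difference averaged over 14 and 21 dpi exceeded that of 3 and 7 dpi by 4.69 ± 1.32 on the log2 scale (edgeR interaction contrast, adjusted p = 0.0116). The study named the gene for EcM at 14 and 21 dpi on these libraries, so this p-value is not independent of that choice. EcM was above ExM by 6.65 and 6.11 at 14 and 21 dpi, and by 2.45 at 7 dpi, while at 3 dpi both were at the floor of 3 counts. Without ExM replicate 2 of 3 dpi, 1 of the 23 libraries in the contrast, the value was 4.31 and the adjusted p 0.167. No group held 4 or more libraries, so single libraries were not tested as outliers, and the low EcM replicate 3 of 21 dpi is described by its values alone.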

How the results depend on the processing

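The calls of LbH12 for EcM against ExM at 14 and 21 dpi, for EcM at 7 over 3 dpi and for EcM at 14 over 7 dpi held in each alternative run. With libraries left out one at a time, the log2 fold change of EcM against ExM ranged from 2.17 to 3.05 at 7 dpi, from 5.88 to 8.39 at 14 dpi and from 5.55 to 7.21 at 21 dpi. The interaction ranged from 4.30 to 5.56. At 7 dpi the call was lost with the 6 libraries alone (2.45, adjusted p = 0.0505) and without 3 single libraries. The sign of ExM against FLM turned where counts were at the floor: at 3 dpi with total counts alone (-0.039) and over a range of -0.74 to 0.87 with libraries left out, and at 14 dpi over a range of -0.51 to 2.23 with libraries left out (-0.51 without ExM replicate 1). The cause was not tested. The permutation difference of ExM against FLM ranged from 0.20 to 0.35 with libraries left out, from 0.09 with a pseudocount of 2 CPM to 0.72 with 0.1 CPM, and that of EcM against ExM from 2.58 to 2.79 with libraries left out and from 1.66 to 3.60 with other pseudocounts or RPKM. By construction, a floor of 10 counts in place of 3 lowered the EcM over FLM multiples to 5.12, 49.6 and 23.1 at 7, 14 and 21 dpi. With libraries left out these multiples ranged from 14.8 to 19.8, from 135 to 195 and from 62.5 to 100.5. The count of other hydrophobins called in EcM against ExM at 7 dpi was 0 without ExM replicate 3 and 1 otherwise. None of the named gene models, 0 of 6, was kept by Spearman's correlation.

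The replicate block changed no call of LbH12 or of a listed hydrophobin. It gave each replicate number a common effect over all days and mycelia, so it did not pair EcM and ExM libraries within a day. With the block, EcM against ExM of LbH12 was 6.07 at 21 dpi and 2.43 at 7 dpi (edgeR adjusted p = 0.0251). The joint deviation of same-numbered libraries at 21 dpi was therefore not modelled by itself. No value was obtained for LbH12 with the compared libraries alone in EcM against ExM at 3 dpi and in ExM against FLM at any day, where the filter on low counts removed it, nor by DESeq2 for ExM against FLM at 14 dpi, nor for LbH9 at 21 dpi with the compared libraries alone. Depth limits every statement on ExM, FLM and EcM at 3 dpi, where most libraries held 3 counts or fewer.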
